A study of Gallus gallus with 4 samples.

Results

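Chicken chromosomes 16 and 29 to 38, 11 small chromosomes called dot microchromosomes here, were described by what was transcribed from them in oocytes at the lampbrush chromosome (LBC) stage. Their transcription units (TUs) were chosen by position alone, as every gene that the deposited transcript assembly placed on one of these chromosomes, whatever its level. They came to 1204 of 22884 TUs, and chromosomes 17 to 28, the next microchromosomes by number, carried 3767. The study prepared stranded poly(A) RNA libraries from wild-type (WT) oocytes, 2 from single isolated nuclei and 2 from ooplasm, the cytoplasm of the oocyte. Reads were pooled, together with earlier total RNA of oocyte nuclei, before the assembly was made, and the methods do not state whether ooplasm reads were among them. No value therefore belongs to a library or an oocyte, nucleus and ooplasm could not be compared, and the spread given below is the spread among chromosomes of 1 assembly.

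Lampbrush chromosomes form in the growing oocyte of birds and amphibians during the diplotene stage of meiosis, when transcription is unusually high and active genes extend as loops from the chromosome axis. Bird microchromosomes are small, GC-rich and gene-rich. The dot chromosomes are among the smallest of them, and long repeats and very high GC content made them hard to sequence. In chicken, chromosome 16 carries the nucleolus organizer with the ribosomal RNA genes and the major histocompatibility complex.

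A TU was 1 gene of the StringTie assembly, described by its most expressed transcript. Expression is given as FPKM, the fragments per kilobase of transcript scaled to the depth of the run. Its span ran from the first to the last exon. Forward (FORW) and reverse (REV) reads had been assembled in separate runs, so activity is given as FPKM and as the percentile of a TU among all nuclear TUs of its own run. Activity here thus means the abundance of assembled RNA. The study took the lower of intron and exon FPKM, to estimate nascent RNA, which is another measure. The extent of a chromosome was taken from its first to its last TU. By this measure the dot chromosomes reached 2.46 Mb (chromosome 37) to 6.13 Mb (chromosome 29), against 3.96 to 15.3 Mb for chromosomes 17 to 28, so the largest dots were not smaller than the smallest of the other set. The name dot rests on cytology, which these data do not measure. Coordinates are 1-based positions of the chicken assembly ASM2420605v2. The files do not pair TUs with gene names, so TUs are given by their identifiers.

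**Figure D1:**
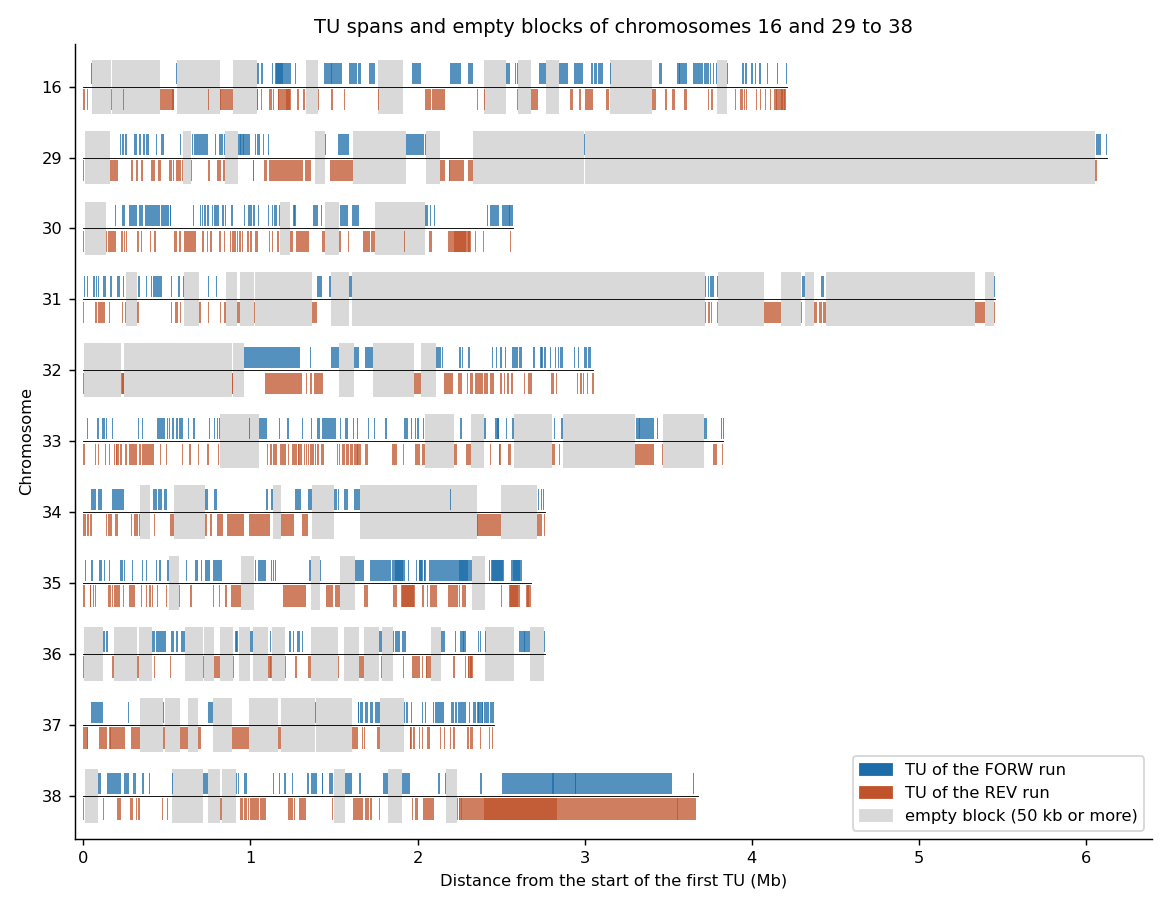
TU spans of the 11 dot chromosomes, FORW above and REV below each line, along the distance from the first TU of the chromosome in Mb, with empty blocks of 50 kb or more in grey. Long stretches without any TU span stand out on chromosomes 29 and 31, and the right part of chromosome 38 is filled by a few very long spans.

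On the dot chromosomes a smaller share of the TU span was assembled as exon. An exon here is a stretch that the assembler placed in a transcript, from reads that included total RNA of nuclei. Whether covered intron was counted as exon, in either set of chromosomes, was not tested. The median share of the span that was exon, among TUs with several exons, averaged 27.0 ± 10.8% on the dot chromosomes (SD, n = 11) and 46.9 ± 2.98% on chromosomes 17 to 28 (SD, n = 12). From lowest to highest it was 13.2% on chromosome 38, 14.5% on 34, 15.6% on 36, 18.3% on 35, 26.3% on 37, 28.8% on 29, 31.3% on 31, 31.5% on 30, 33.3% on 16, 35.4% on 32 and 48.5% on 33. Chromosomes 17 to 28 lay between 41.4% and 50.8%, so 10 of the 11 dots fell below all of them and chromosome 33 lay inside their range. The difference of -19.9 percentage points had p = 7.4e-06 by a two-sided exact permutation test over all 1352078 splits of the 23 chromosomes, with an adjusted p of 4.88e-05 over the 11 measures tested. Without chromosome 33 the difference was -22.1 points. Among TUs of FPKM 1 or more it was -18.9 points.

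The lower exon share came with a shorter exonic length in every class of span, by little in TUs under 2 kb and by more in longer ones. The median exonic length of a TU was 1661.5 bp on the dot chromosomes, 3318 bp on chromosomes 17 to 28 and 4212.5 bp over all nuclear TUs, where the assembler kept no transcript under 1000 bp. On the dots it was 1255.5 bp for TUs under 2 kb, 2108 bp for spans of 5 to 10 kb, 2023 bp for 20 to 50 kb and 2297.5 bp for 100 kb or more. On chromosomes 17 to 28 the same classes had 1304.5, 3809, 9532 and 10466 bp. Exonic length thus stayed near 2 kb on the dots over spans for which it rose several-fold on the other microchromosomes. Exons of the most expressed transcripts covered 7.12 ± 4.04% of the extent of a dot chromosome, from 2.94% on chromosome 29 to 16.1% on 33, against 22.6 ± 3.06% on chromosomes 17 to 28, with a minimum of 18.4%. The 2 ranges did not overlap, and this difference was not tested. The median FPKM was 2.38 over the dot TUs and 2.81 over TUs of chromosomes 17 to 28, and the part of read coverage in the exonic length was not tested.

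**Figure D2:**
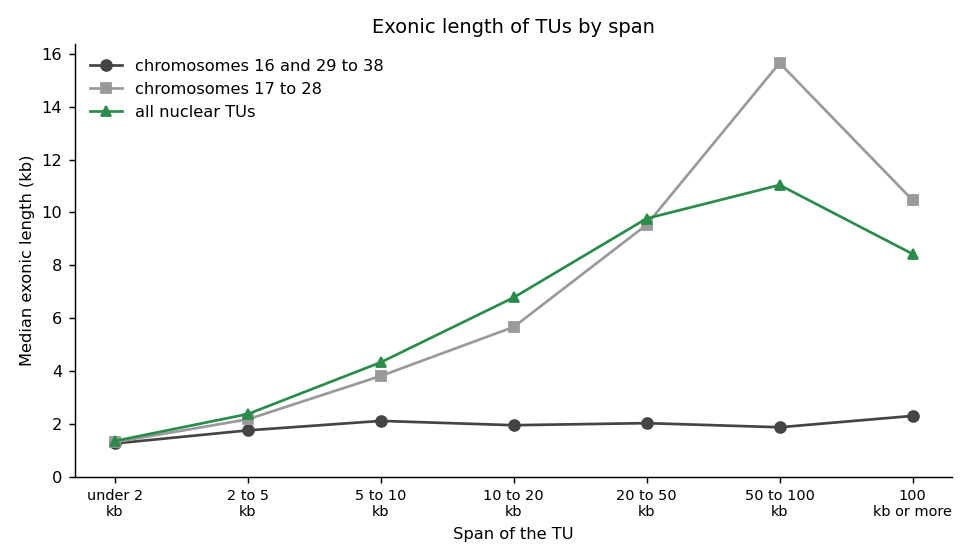
Median exonic length of TUs in kb by class of span, for the dot chromosomes, chromosomes 17 to 28 and all nuclear TUs. The dot chromosomes stay between 1255.5 and 2297.5 bp, whereas chromosomes 17 to 28 reach 15652 bp in the class of 50 to 100 kb.

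The median number of exons per chromosome was not called different. TUs with several exons had a median of 5.68 ± 1.31 exons on the dot chromosomes and 6.25 ± 0.622 on chromosomes 17 to 28 (SD, n = 11 and 12; difference -0.57, adjusted p = 0.29 by the exact permutation test). By class of span, with single-exon TUs included, long dot TUs had fewer exons. Medians on the dots and on chromosomes 17 to 28 were 4 and 15.5 for 100 kb or more and 5.5 and 15 for 50 to 100 kb. They were 9 and 11 for 20 to 50 kb, 9 and 7 for 10 to 20 kb and 7 and 5 for 5 to 10 kb. These classes were not tested. Single-exon TUs made up 216 of 1204 dot TUs (17.9%), beside 24.9% of all nuclear TUs. By chromosome their share averaged 18.4 ± 4.87% on the dots and 20.3 ± 3.24% on chromosomes 17 to 28, a difference of -1.96 points that missed the threshold (adjusted p = 0.29, exact permutation test). Among TUs of at least 5 kb the difference was -6.88 points and passed it (adjusted p = 8.14e-06, exact permutation test). With a minimum FPKM of 1 it was 1.86 points and missed it (adjusted p = 0.25, exact permutation test). Chromosome 38 had the highest share, 27.7%, and chromosome 32 the lowest, 12.7%. Median introns differed more than exon numbers, with 194 bp on chromosome 33 and 2285 bp on chromosome 38, and a mean of 928 ± 595 bp on the dots against 469 ± 92.1 bp on chromosomes 17 to 28. This measure was not tested.

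TUs of opposite runs overlapped less often on the dot chromosomes. The share of TUs whose span met a TU of the other run averaged 31.5 ± 7.33% on the dots (SD, n = 11) and 46.4 ± 5.26% on chromosomes 17 to 28 (SD, n = 12). It was 14.3% on chromosome 36, 25.4% on 34, 27.7% on 38, 28.4% on 32, 31.0% on 29, 34.7% on 37, 35.2% on 30, 35.8% on 35, 36.4% on 16, 37.8% on 31 and 40.0% on 33, and 38.1% to 53.4% on chromosomes 17 to 28. Again chromosome 33 alone reached into the range of the other set. The difference was -14.8 points (p = 8.88e-06, adjusted p = 4.88e-05, exact permutation test). Counted over TUs, 398 of 1204 dot TUs (33.1%) overlapped the opposite run, beside 38.2% of all nuclear TUs. Exons overlapped exons of the opposite run in 345 dot TUs (28.7%), beside 35.5% of all nuclear TUs. Overlapped dot TUs had a median percentile of 50.3 and the others 55.5, while on chromosomes 17 to 28 overlapped TUs stood at 60.8 and the others at 54.7. The difference between these orders was not tested.

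**Figure D3:**
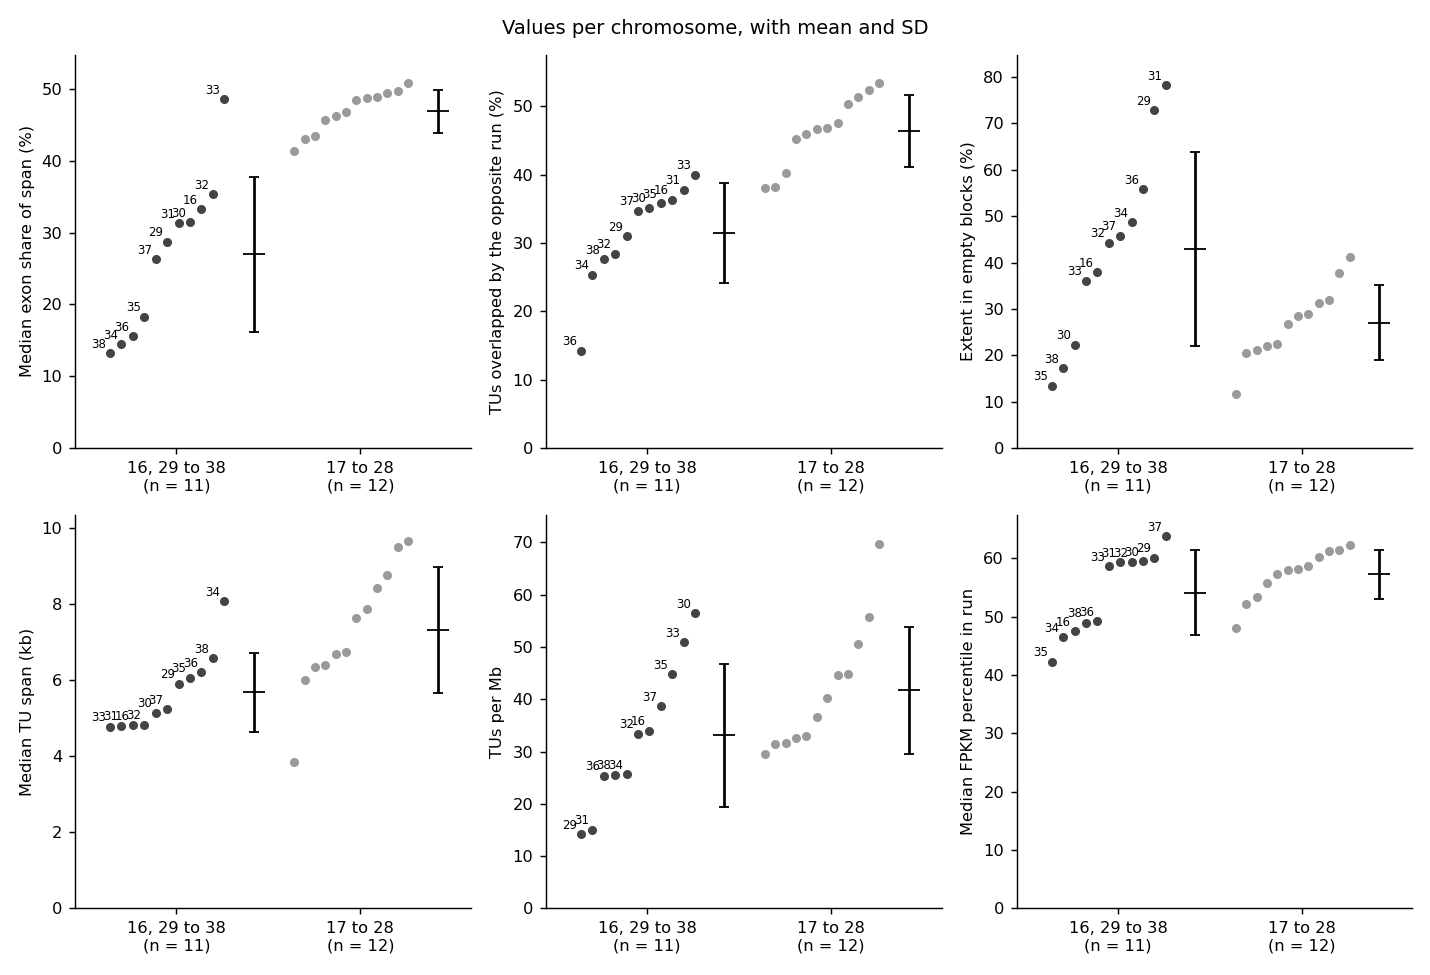
Measures per chromosome, dot chromosomes (n = 11, numbered points) left of chromosomes 17 to 28 (n = 12), each with its mean and SD. In exon share and in overlap by the opposite run 10 of the 11 dot points lie below all points of the other set, and the points of the other 4 measures intermix.

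Orientation of neighbours gave no call. Among TUs of at least 5 kb ordered by midpoint, 50.1 ± 5.55% of neighbouring pairs on the dots were co-directional, which means that both came from the same run, against 52.8 ± 5.06% on chromosomes 17 to 28 (difference -2.66 points, adjusted p = 0.29, exact permutation test). The lowest share was 38.8% on chromosome 38 and the highest 57.6% on 33. With TUs of any span the difference was 6.23 points in the other direction and passed the threshold (adjusted p = 0.00986, exact permutation test), so the direction rested on which TUs counted as neighbours.

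The dot chromosomes were a mosaic of active and empty blocks. An empty block was a stretch of at least 50 kb with no TU span of either run, and an active block is what lies between empty blocks. Spans were those of the most expressed transcripts, so other isoforms can lie inside an empty block. An isoform of FORW.10524 on chromosome 32 (907838 to 1330924) crossed the empty block at 914310 to 980553. It also reached into the block ending at 908835. On chromosome 33 the longest isoform of FORW.10655 spanned 410 kb, against 107 kb for the span used. The dots held 99 empty blocks with a total of 18.6 Mb out of 39.6 Mb, and chromosomes 17 to 28 held 211 with 27.8 Mb out of 99.2 Mb. The share of the extent in empty blocks was 78.2% on chromosome 31, 72.7% on 29, 55.8% on 36, 48.7% on 34, 45.8% on 37, 44.3% on 32, 37.9% on 16, 36.1% on 33, 22.3% on 30, 17.3% on 38 and 13.5% on 35. Of these, 6 lay above 41.2%, the highest value of chromosomes 17 to 28, and the dots reached both higher and nearly as low as that set. The mean was 43.0 ± 20.9% on the dots and 27.0 ± 8.09% on chromosomes 17 to 28. The difference of 15.9 points missed the threshold (p = 0.0211, adjusted p = 0.0581, exact permutation test). It passed in 6 of 14 other settings, with differences of 15.2 to 19.4 points, namely with TUs of at least 5 kb, all transcripts, the longest transcript, blocks of 20 kb, exons as cover and TUs under 100 kb. Left out one at a time, chromosomes 30, 35, 38 and 23 each brought it past the threshold. With TUs under 100 kb only, the difference was 19.1 points (adjusted p = 0.011, exact permutation test), and in that setting chromosome 38 was 52.3% empty in place of 17.3%.

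The 2 longest empty blocks lay on chromosomes 29 and 31. On chromosome 29 no TU span lay from 3015046 to 6065141, a stretch of 3050 kb between FORW.10393 (FPKM 1.81) and REV.10259 (FPKM 4.84). Just before it was another empty block of 670 kb (2338967 to 3008952). On chromosome 31 the stretch from 1613632 to 3730092 was empty over 2116 kb, between FORW.10503 (FPKM 0.560) and FORW.10505 (FPKM 0.371), and a further block of 895 kb followed at 4452063 to 5347128. Chromosome 32 had 647 kb without a TU span (261967 to 908835, between REV.10370 and REV.10373). Chromosome 34 had 541 kb (1737476 to 2278923, between FORW.10685 and FORW.10691), and chromosome 33 had 435 kb (2886200 to 3321019, between FORW.10653 and REV.10517). Most TUs at these borders were weak, with FPKM of 0.744, 0.352, 0.647, 0.494 and 0.571 for REV.10370, REV.10373, FORW.10685, FORW.10691 and REV.10517, whereas FORW.10653 had 8.63. Longest empty blocks of the other dots ran from 87.8 kb on chromosome 35 to 202 kb on 37. Chromosome 16 also began with 708 kb before its first TU, which is outside its extent, and the other dots with 4.07 to 129 kb. How much of an empty block is repeat or unmappable sequence was not tested, since no genome sequence was used here.

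TU density was not called different with all TUs counted, either over the extent or outside empty blocks. Over the whole extent, the dots averaged 33.1 ± 13.7 TUs per Mb and chromosomes 17 to 28 averaged 41.7 ± 12.1 (difference -8.60, adjusted p = 0.276, exact permutation test). Chromosomes 29 and 31 had 14.2 and 15.0, chromosomes 38, 36 and 34 had 25.5, 25.4 and 25.7, and chromosomes 30, 33 and 35 had 56.4, 50.9 and 44.7 TUs per Mb. Outside empty blocks the values were 59.0 ± 13.6 on the dots and 57.0 ± 14.4 on chromosomes 17 to 28 (difference 2.03, adjusted p = 0.732, exact permutation test). Chromosomes 31 and 29 then stood at 68.9 and 52.1 TUs per Mb, within the range of the other dots, and the lowest was chromosome 38 with 30.9. Counting TUs of at least 5 kb only, density over the extent was lower on the dots by a difference of -7.89 TUs per Mb that passed the threshold (adjusted p = 0.00989, exact permutation test). The difference outside empty blocks changed direction, without a call, with these TUs (-2.92) and with empty blocks of at least 100 kb (-0.49) or 200 kb (-4.10).

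Some dots had their TUs in small windows. On chromosome 29, 44 of 87 TUs lay within 0.536 Mb, 8.75% of its extent, and on chromosome 31, 41 of 82 TUs lay within 0.555 Mb (10.2%). The shortest window that held as many took 23.8 ± 10.4% of the extent on the dots, up to 40.9% on chromosome 35, and 36.2 ± 4.43% on chromosomes 17 to 28. Active blocks of 20 or more TUs numbered 17 on the dots. They held 734 TUs (61.0%) and 73.4% of the summed FPKM of these chromosomes, below the 76.2% of TUs and 82.3% of FPKM in such blocks of chromosomes 17 to 28. Isolated blocks of 1 to 5 TUs were more numerous, 63, but held only 133 TUs. The median percentile was 56.1 in blocks of 20 or more, 53.4 in blocks of 6 to 19 and 45.7 in blocks of 1 to 5 TUs, an order that chromosomes 17 to 28 shared with 60.2, 49.4 and 41.5. These block measures were described without a test.

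On chromosome 33, 101 of 195 TUs formed 1 active block (1067864 to 2063451) with 101 TUs per Mb, and 71.6% of the FPKM of the chromosome came from it. On chromosome 30 a block of 92 TUs (145152 to 1183972) gave 75.8% of the FPKM. On chromosome 32 the block at 2132095 to 3073332 had 79 of 102 TUs and 86.4% of the FPKM, and on chromosome 37 the last block (1920707 to 2459725) had 62 of 95 TUs and 74.4%. In all 4 of them the median percentile was above 60, at 67.1, 62.2, 62.8 and 69.3 in the order given. The block of chromosome 37 was uneven in direction, with 44 FORW and 18 REV TUs. On no other dot did 1 block hold most of the TUs. There the largest block held 20% (chromosome 36) to 40.8% (chromosome 34) of the TUs and 17.4% (chromosome 36) to 60.5% (chromosome 35) of the FPKM. Its median percentile ran from 41.1 on chromosome 38 to 68.6 on chromosome 35. The largest block of chromosome 36 held 14 of 70 TUs, and the TUs of that chromosome were spread over 17 active blocks. On chromosome 16 the largest block lay at the right end (4562526 to 4917669) with 38 of 143 TUs at 107 TUs per Mb, of which 22 overlapped the opposite run. A block of 12 TUs on chromosome 31 (3730093 to 3808629) stood between empty blocks of 2116 and 272 kb.

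Spans were shorter on the dot chromosomes in the main comparison, which few alternatives kept. The median span averaged 5.68 ± 1.03 kb on the dots, from 4.78 kb on chromosome 33 to 8.08 kb on 34, and 7.33 ± 1.66 kb on chromosomes 17 to 28. The difference of -1.65 kb had an adjusted p of 0.0396 (exact permutation test), but 12 of the 23 fits that left out 1 chromosome missed the threshold, with adjusted p up to 0.0732. The call was kept in 4 of 11 other settings. It was lost with all transcripts of a TU, with the longest transcript, among multi-exon TUs and in either run alone, and the difference turned to 0.54 kb among TUs of at least 5 kb and to 1.201 kb as a mean over TUs.

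Activity of dot TUs overlapped with that of the other microchromosomes. The median percentile was 54.1 ± 7.24 on the dots and 57.2 ± 4.26 on chromosomes 17 to 28 (difference -3.14, adjusted p = 0.29, exact permutation test). On the dots it was 63.8 on chromosome 37, 60.1 on 29, 59.5 on 30, 59.3 on 31 and 32 and 58.6 on 33, followed by 49.2 on 36, 49.0 on 38, 47.5 on 16, 46.4 on 34 and 42.3 on 35. Chromosomes 29 and 31, the emptiest, thus had medians near that of chromosome 30. Their lower quartiles were 39.3 and 19.4, against 38.1 on chromosome 30, so chromosome 31 had more weak TUs. Among TUs of FPKM 1 or more the difference was -6.88 percentile points and passed the threshold (adjusted p = 0.00251, exact permutation test). In the top 10% of a run stood 91 dot TUs (7.56%), beside 10% of all nuclear TUs by construction, and 13.6% of TUs of chromosomes 17 to 28. Of the 91, 28 came from chromosome 33, where they made up 14.4% of TUs, and only 1, 1 and 2 from chromosomes 34, 36 and 38. The lowest 10% of a run held 97 dot TUs (8.06%), beside 10% of all nuclear TUs. Together the dots carried 5.26% of nuclear TUs and 4.43% of their summed FPKM.

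**Figure D4:**
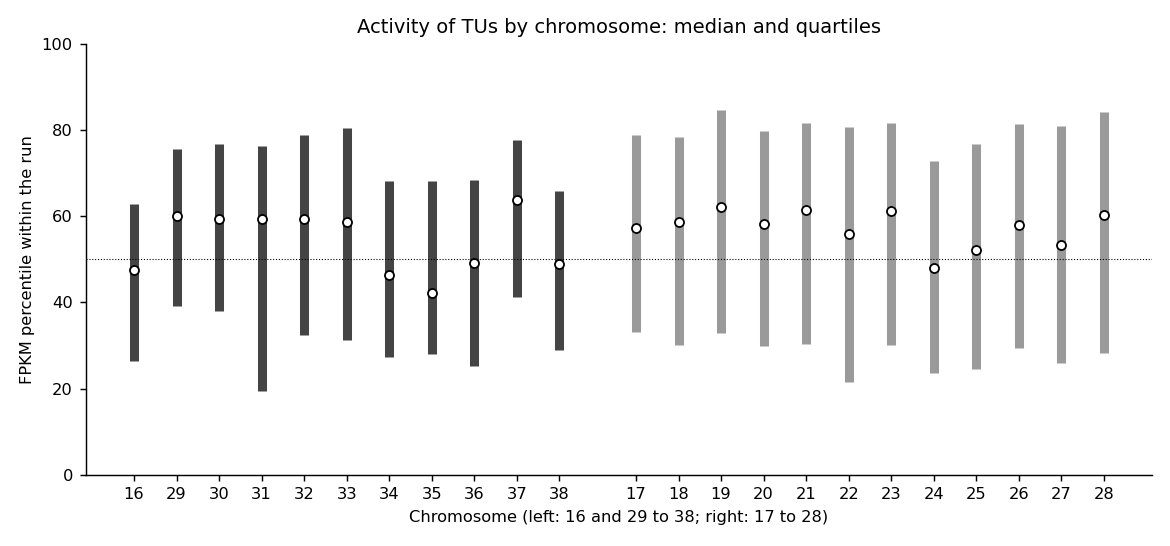
FPKM percentile within the run by chromosome, as median (circle) and quartiles (bar), with the dot chromosomes left of chromosomes 17 to 28 and the run median as a dotted line. On the dots medians range from 42.3 on chromosome 35 to 63.8 on 37, and those of chromosomes 16, 34, 35, 36 and 38 lie below the dotted line.

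Of the 10 most abundant dot TUs, 8 had several exons within spans of 2.07 to 9.04 kb. FORW.10418 on chromosome 30 (718140 to 721111) led with FPKM 198, from 9 exons over 2.97 kb. Chromosome 33 gave 5 of the 10 highest, namely FORW.10611 (1438599 to 1442135, FPKM 147), REV.10490 (1655008 to 1657962, FPKM 132), REV.10474 (1424119 to 1427951, FPKM 112), REV.10502 (FPKM 109) and FORW.10636 (FPKM 79.9), all inside its block of 101 TUs and with spans of 2.07 to 3.83 kb. The other 4 were on chromosome 16. REV.8308 (4736077 to 4740867, FPKM 107) and REV.8299 (FPKM 82.1) had 8 and 7 exons over 4.79 and 9.04 kb. FORW.8442 (1856000 to 1948338, FPKM 119) and FORW.8443 (1861237 to 1905156, FPKM 91.6) were of another shape, overlapping each other in the same run with 92.3 and 43.9 kb, 4 and 3 exons, and 5 and 9 isoforms. Their exons came to 1.94% and 4.75% of the span. Reads that could belong to either of these overlapping TUs cannot be told apart. The other dots had lower maxima.

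Their highest FPKM was 77.2 for FORW.10535 on chromosome 32, 73.3 for REV.10239 on 29, 65.0 for FORW.10494 on chromosome 31, 52.7 for REV.10668 on 37, 30.3 for FORW.10715 on 35, 29.6 for FORW.10671 on 34, 26.8 for FORW.10869 on 38 and 21.1 for FORW.10777 on 36. On chromosomes 34, 35, 36 and 38 no TU thus passed FPKM 30.3, whereas the highest TU of each of chromosomes 17 to 28 had FPKM 101 to 855. These 4 dots held 71, 120, 70 and 94 TUs, against 231 to 454 on each of chromosomes 17 to 28. The maxima were not adjusted for the number of TUs. Summed FPKM per Mb of extent was 226 ± 154 on the dots and 428 ± 111 on chromosomes 17 to 28, which was not tested.

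The number of isoforms was not called different either. The mean number of transcripts per TU was 1.68 ± 0.0801 on the dots and 1.73 ± 0.104 on chromosomes 17 to 28 (difference -0.05, adjusted p = 0.29, exact permutation test). At least 6 isoforms were assembled for 26 dot TUs (2.16%), beside 2.04% of all nuclear TUs. FORW.10524 on chromosome 32 had the most, 18, followed by REV.10323 (12) and FORW.10467 (11) on chromosome 30, FORW.10911 (10) on 38 and FORW.10368 (10) on 29. The largest number of exons was found in REV.10250 on chromosome 29, with 68 exons over 151 kb (1157459 to 1308845, FPKM 5.75). FORW.10368 (47 exons), REV.10471 (44, chromosome 33), FORW.10719 (40, chromosome 35) and REV.10443 (38, chromosome 33) came next. FORW.10368 was thus high in both exons and isoforms, whereas FORW.10524 had 5 exons.

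Spans of at least 100 kb were found for 22 dot TUs (1.83%), beside 3.51% of all nuclear TUs and 1.06% on chromosomes 17 to 28. These 22 TUs were of different kinds. A group of 7 had 15 to 68 exons and longest introns of 7.06 to 21.2 kb. They were REV.10250, REV.10253 and FORW.10391 on chromosome 29, REV.10544 and REV.10545 on 34, and REV.10588 and FORW.10731 on 35, with FPKM from 2.01 for FORW.10731 to 9.74 for REV.10588. The other 15 had 2 to 6 exons and at least 1 intron above 50 kb, and 6 of them lay on chromosome 38. Introns of 50 kb or more were present in 31 of 1204 dot TUs and in 26 of 3767 TUs on chromosomes 17 to 28. Over all nuclear TUs it was 541 of 22882 (2.36%), a share near that of the dots. Of the 38 such introns on the dots, chromosomes 35 and 38 had 12 each. The assembler kept a junction with 5 or more reads, so a span made of 2 exons and 1 intron can rest on few reads.

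Chromosome 38 held the longest of these units, all in its right part. From 2265630 to 3693450, 1.43 Mb or 38.8% of its extent, 6 TUs of at least 100 kb overlapped in a chain. REV.10719 (2265630 to 3227732) spanned 962 kb with 4 exons, whose 3 introns measured 379, 215 and 364 kb, and had FPKM 6.51. FORW.10911 (2824733 to 3542591) spanned 718 kb with 6 exons and had FPKM 8.02. REV.10722 (2420451 to 2852872), REV.10723 (3224466 to 3576520), FORW.10908 (2526358 to 2764434) and REV.10724 (3570702 to 3688677) had 2 exons each over 432, 352, 238 and 118 kb, with FPKM of 1.39, 6.54, 10.3 and 2.72. All but REV.10722 thus stood above the middle of their run, at percentiles of 56.7 to 80.2. REV.10719 had 7 isoforms, REV.10723 had 5, FORW.10908 had 6 and FORW.10911 had 10, and 11 other TUs lay inside the span of REV.10719.

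**Figure D5:**
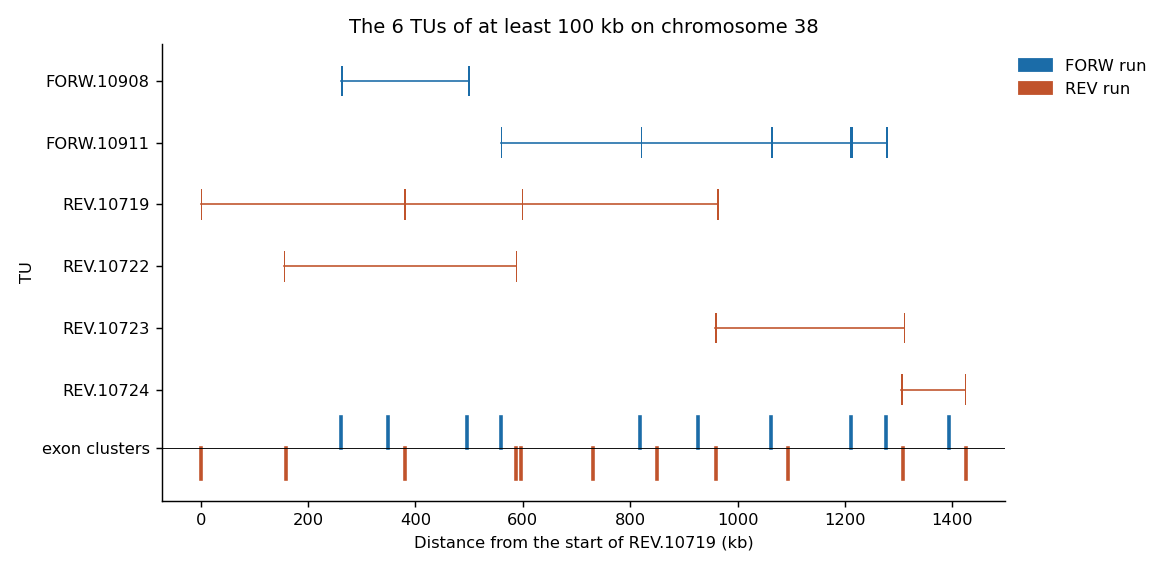
Exons (vertical bars) and introns (lines) of the most expressed transcript of the 6 long TUs of chromosome 38, by distance from the start of REV.10719 in kb, with the 21 exon clusters of all their transcripts in the bottom row, FORW above and REV below the line. Few exons are separated by introns that reach 429.5 kb, and no cluster holds exons of both runs.

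The exons of these long units were few, clustered and kept apart by strand. Exons of their 30 transcripts covered 46.9 kb, 3.28% of the stretch. Of their 48 distinct introns, 39 were 50 kb or longer. Exons within 5 kb of each other formed 21 clusters, 10 of FORW exons only and 11 of REV exons only, and the median cluster measured 3.27 kb. Where a FORW cluster was followed by a REV cluster (n = 7), the gap between them was 26.1 to 32.1 kb. Where a REV cluster was followed by a FORW cluster (n = 7), it was 72.2 to 114 kb, so these 2 sets of gaps did not overlap. Joining exons within 2 or 10 kb gave the same gaps. Only exons of the same run were joined there, so this could not have changed them. Exons of the 10 other TUs in the stretch were left out of the clusters. A FORW TU among them ended at 2839685, inside the gap between clusters from 2825172 to 2852340. The spacing of the clusters was noticed in the data and was not tested. An intron of 531 bp occurred at 2 positions of the stretch (2762397 and 3477030). Long introns also recurred in exact length, at positions that overlapped. They measured 65765 bp (3 positions), 117603 bp (starts 3540247 and 3540762), 348621 bp (2648214 and 2648234) and 467768 bp (3189901 and 3190597). The part of repeated sequence in these units was not tested.

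TUs under 100 kb lay among the long ones. The stretch had 10 of them, 4 with a single exon, and their median span was 1.66 kb at a median percentile of 62.8. They included a FORW TU of 70.2 kb (2769515 to 2839685). The left part of chromosome 38, 2.25 Mb with 77 TUs, had 34.3 TUs per Mb against 11.2 in the right part, a median percentile of 46.4 and no TU above 65.8 kb. Counted by the most expressed transcript of each TU, the long units summed to FPKM 35.5 of 354 on the whole chromosome. Over all isoforms of a unit, summed FPKM was 41.5 for FORW.10911, 33.8 for REV.10719, 30.6 for FORW.10908 and 19.7 for REV.10723. FORW.10908 reached 100 kb in 1 of its isoforms only, and its shorter isoforms had a summed FPKM of 20.3 of 30.6. These included isoforms of 88.5 and 89.95 kb, with FPKM of 7.90 and 1.88. In FORW.10911, 8 of 10 isoforms reached 100 kb. Of chromosome 38, 47.1% of the sequence under TUs lay under both runs, against 2.41% to 20.2% on the other dots and 6.30 ± 1.19% on chromosomes 17 to 28. When exons rather than spans were taken as cover, 51.2% of chromosome 38 was empty.

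Pairs of TUs from opposite runs numbered 243 on the dots. One TU lay inside the other in 141 pairs, 53 met head to head and 49 tail to tail, with median overlaps of 2.58, 1.31 and 1.68 kb. These arrangements were read from the run and not from the strand. Among dot TUs with several exons, 81 had a strand opposite to their run, so pairs that hold one of them can lie on the same strand. Exons shared bases in 189 pairs. The longest overlaps were those of FORW.10911 with REV.10719 (403 kb) and with REV.10723 (318 kb) and of FORW.10908 with REV.10719 and with REV.10722 (238 kb each), all without a shared exonic base. The next, FORW.10524 with REV.10375 on chromosome 32 (209 kb), shared 607 exonic bases. These longest overlaps of chromosome 38 thus lay in introns, and on the dots as a whole most overlapping pairs were short and shared exonic bases. Of the overlapped TUs, 345 of 398 on the dots overlapped in exons. The counts were 1673 of 1765 on chromosomes 17 to 28 and 8122 of 8730 over all nuclear TUs. Exonic overlap was thus not particular to the dots, and its share was lower there. It was lowest on chromosomes 38 (12 of 26) and 35 (22 of 43), while on 31 and 37 every overlapped TU overlapped in exons. This was not tested.

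The pair of chromosome 32 used 1 intron in common. FORW.10524 (980554 to 1317238, 337 kb, FPKM 11.9) and REV.10375 (1106458 to 1315482, 209 kb, FPKM 0.427) both had the intron from 1107070 to 1313908, 207 kb long, although they came from opposite runs. The file places FORW.10524 on the plus and REV.10375 on the minus strand, so the same intron was assembled on both. Introns used in both runs made up 387 of 7308 on the dots (5.30%), 799 of 26878 on chromosomes 17 to 28 (2.97%) and 2880 of 152029 over all nuclear TUs (1.89%), and their share was highest on chromosome 33 with 128 of 1429 (8.96%). Among TUs with several exons, 81 on the dots (8.20%) had a strand opposite to their run, beside 2.97% of all nuclear TUs, and 4.67% on chromosomes 17 to 28. These 81 TUs had a median percentile of 31.1 and a median span of 3.36 kb, and 63 of them (77.8%) used an intron of the other run. Among TUs of opposite strand this share was 84.1% over all nuclear TUs and 94.3% on chromosomes 17 to 28. Without them the difference in overlap by the opposite run was -18.1 points and the difference in exon share -20.2 points. On chromosome 33, REV.10517 (FPKM 0.571) and FORW.10655 (FPKM 3.45) overlapped with introns of 105.8 and 105.9 kb.

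Introns of at least 5 kb whose exact length recurred at another position on the same chromosome, overlapping positions included, made up 60 of 655 on the dots (9.16%), 61 of 1779 on chromosomes 17 to 28 (3.43%) and 7.78% over all nuclear TUs. Repeated sequence was not read here, and the difference was not tested.

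Over the whole assembly, 22882 TUs lay on 40 nuclear chromosomes, 11419 in the FORW and 11463 in the REV run. The depth of each library is unknown, and TUs with coverage under the minima of the assembler are missing from it. The p-values describe how this assembly is arranged over chromosomes, and differences among oocytes or hens were not measured.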

How the data were processed

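Stranded poly(A) RNA was sequenced from 2 single nuclei and 2 ooplasm samples of chicken oocytes. Per the methods and the file header, the authors trimmed reads with cutadapt, aligned them with HISAT2 to ASM2420605v2, separated them by direction, removed duplicates with SAMtools, pooled all experiments and ran StringTie 2.2.2 once for FORW and once for REV reads (-c 1.2, -s 3.5, -f 0.05, -a 10, -j 5, -m 1000, -g 300). The deposited transcript attributes, read as text, hold FPKM, read coverage and TPM. FPKM was used, coverage was written out beside it and TPM was not used. No column holds the values of 1 library, so the depth per library is unknown.

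A TU was a gene identifier, taken with its transcript of highest FPKM. FPKM was ranked as a percentile within its run over nuclear TUs. Introns were taken between consecutive exons. Empty blocks were gaps of at least 50 kb between TU spans of either run. Each of 11 measures was computed per chromosome, and means over 11 dot chromosomes and chromosomes 17 to 28 were compared by a two-sided exact permutation test with Benjamini-Hochberg adjustment (threshold 0.05). TUs of a chromosome are not independent, so the chromosome was the unit. The test was tested on simulated data. Python 3.11.15, numpy 2.4.6, pandas 2.3.3 and matplotlib 3.10.9 were used. Named TUs were, on each dot chromosome, the highest in FPKM, the longest and the pair at the longest empty block, and over all dots the 10 highest in FPKM, all of at least 100 kb, the 5 with most exons, the 5 with most isoforms and the 5 longest overlaps of opposite runs. Alternatives changed the transcript of a TU, minimum span and FPKM, empty block size, cover, summary and strand rule, or left out 1 chromosome. The members, measures and lists were chosen with earlier results of these data known.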

Additional observations from a re-analysis of the deposited data

How the results depend on the processing

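Of 377 recomputed values, 336 kept their direction and their side of the threshold, 17 no longer passed it, 13 passed it newly and 11 changed direction. Exon share (-22.1 to -14.6 points) and overlap by the opposite run (-18.1 to -11.3 points) passed it under all alternatives run. With TUs of at least 5 kb the differences, dots minus chromosomes 17 to 28, newly passed for density (-7.89 TUs per Mb), empty share (16.6 points) and single-exon TUs (-6.88 points), and changed direction without a call outside empty blocks (-2.92 TUs per Mb), for span (0.54 kb) and for isoforms (0.032). The empty share also newly passed, with 17.4 points with all transcripts of a TU, 17.7 with the longest, 15.2 with blocks of 20 kb, 19.4 with exons as cover and 19.1 with TUs under 100 kb. The call on span was lost at -1.35 kb with all transcripts, -1.39 with the longest, -1.09 among multi-exon TUs, -1.85 in the FORW and -1.54 in the REV run alone, and turned to 1.201 as a mean over TUs. With a minimum FPKM of 1 the percentile newly passed (-6.88) and single-exon TUs turned to 1.86 points without a call. Changes of direction without a call were also found for the percentile as medians over chromosomes (0.52). Density outside empty blocks differed by -0.49 with blocks of 100 kb and -4.10 with 200 kb, isoforms by 0.0012 in the REV run alone, all without a call, and co-directional neighbours of any span by 6.23 points, which passed. The cause of these changes was not tested. Leaving out 1 chromosome at a time gave -1.96 to -1.43 kb of span, 12.4 to 18.9 points empty, -0.030 to 4.96 TUs per Mb outside empty blocks and -10.9 to -6.06 over the extent. It gave -4.10 to -1.95 for the percentile, -2.88 to -1.39 points of single-exon TUs, -0.7 to -0.4 exons, -0.07 to -0.03 isoforms and -3.57 to -1.53 points of co-directional neighbours. The settings with TUs under 100 kb, without TUs of opposite strand and with either run alone were chosen after seeing the data. No paired analysis was possible because reads were pooled before assembly and no value carries a replicate number.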
